A study of Mus musculus with 6 samples.

Results

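The uterine epithelium was examined as a region of tissue, by taking from each of 4 Visium sections the spots richest in epithelial transcripts and comparing those of neonatally DES-exposed mice with those of controls. Within a section, spots were ranked by the share of their unique molecular identifiers (UMIs, each tallying 1 captured transcript) that came from Krt18, Krt8, Epcam, Cdh1 and Wfdc2, and the top 15% were taken as epithelium-rich. In all, 930 of 6199 spots were chosen by this measured share, namely 215 of 1433 for CO A, 275 of 1834 for CO B, 236 of 1575 for DES A and 204 of 1357 for DES B. All mice were of the CD-1 strain and carried no engineered allele. Control pups (CO) received corn oil and exposed pups received diethylstilbestrol (DES), a synthetic estrogen, at 1 mg/kg/day, by subcutaneous injection on days 1 to 5 after birth, and uteri were taken at 12 months. The study took CO mice in estrus, while its DES mice were in persistent estrus. Each section came from 1 mouse, so 2 CO and 2 DES mice enter every comparison, and the sections were frozen, longitudinal and placed on the same slide. The series also holds single cells from 1 CO library (uteri of 2 mice pooled) and 1 DES library (4 mice pooled), which serve here as a second view of the same genes.

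The lining of the mouse uterus is a single layer of columnar luminal epithelium that dips into glands. Estrogen drives both to divide and to secrete, and the glands depend on the transcription factor FOXA2. Basal cells, which express p63 and keratins 5 and 14 and from which a stratified squamous epithelium is built, belong to the vagina and ectocervix and are not part of the normal uterine lining. DES given to newborn mice is a known cause of squamous change and of adenocarcinoma in the adult uterus.

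A Visium spot is 55 µm across and covers several cells, so these spots are regions and not single cell types, and fewer cells of a type cannot be told apart from less RNA per cell. The sections held 9117099 to 12506177 UMIs in their spots, and the epithelium-rich sums held 3117439 and 2835615 UMIs for the CO pair (A, then B) and 1747207 and 1755818 UMIs for the DES pair. The median epithelium-rich spot had 14407, 9245, 6439 and 7063.5 UMIs in the same order, and 21, 15, 37 and 33 spots had fewer than 2000. The study notes a tissue fold in CO B and few distinguishable clusters in DES B. Any pair of sections shares 563 to 1144 spot barcodes, which on Visium slides name positions and not cells.

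The marker share itself chose the spots and is given only as a description. The lowest share taken was 0.617% and 0.597% of UMIs in CO A and CO B and 0.492% and 0.513% in DES A and DES B, and the highest share left out was 0.616%, 0.596%, 0.491% and 0.512%. The limit was thus lower in both DES sections than in both CO sections. The median share was 0.680% and 0.686% in the chosen CO spots and 0.575% and 0.605% in the chosen DES spots. Outside the chosen spots it was 0.224% and 0.168% in CO and 0.245% and 0.290% in DES, so that chosen and other spots lay closer together in DES.

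**Figure D1:**
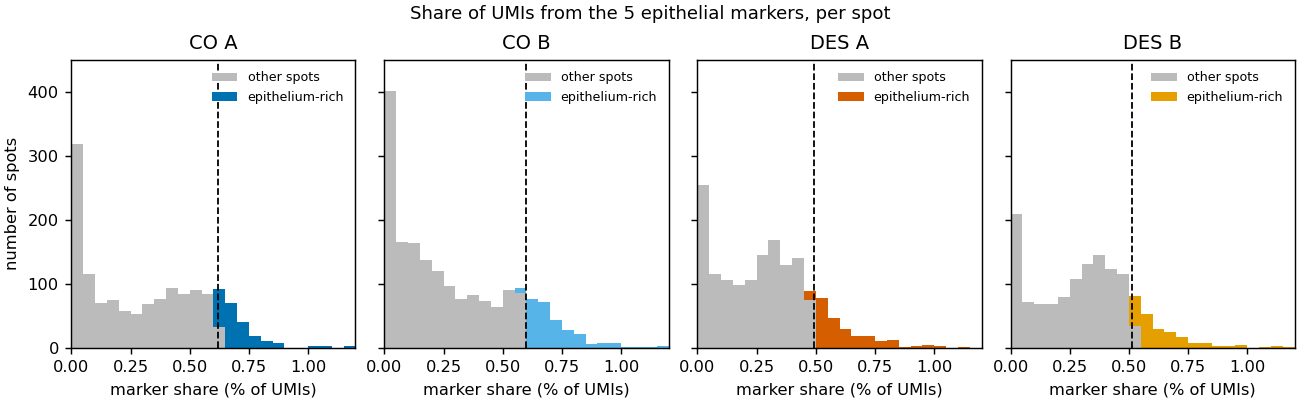
Distribution over spots of the UMI share of the 5 epithelial markers, in percent, for each section. Coloured bars are the epithelium-rich spots, grey bars the other spots, the dashed line is the limit of the top 15%, and the last bar holds every spot above the axis. The limit sits at 0.617% and 0.597% in the CO sections and further left, at 0.492% and 0.513%, in the DES sections.

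Levels below are CPM, the usual depth-scaled unit, in which the UMIs of a gene are expressed relative to all UMIs of the section's epithelium-rich sum. Marker lists that played no part in the choice describe what these spots held. The 12 other epithelial markers summed to 7638 and 5345 CPM in the CO sections and to 6918 and 7967 CPM in the DES sections, always given as A and then B, without separation of the groups. Relative to the other spots of the same section their level was 2.05 and 2.40 times as high in CO, but 1.35 and 1.42 times in DES. Cldn4, a tight junction claudin, was the 1 of these 12 that passed the test, at 28.2 and 45.5 CPM in CO and 192 and 157 CPM in DES (log2 fold change 1.93 ± 0.29 SE, edgeR adjusted p = 0.0272).

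Markers of other cells moved with the groups. Smooth muscle genes summed to 545 and 454 CPM in CO A and CO B and to 1150 and 1554 CPM in DES A and DES B. In CO this was 0.0207 and 0.0152 of the level in the other spots, and in DES 0.181 and 0.223, the level in the other spots itself being 26367 and 29791 CPM in CO and 6357 and 6971 CPM in DES. Myeloid genes summed to 194 and 316 CPM in CO and 1747 and 836 CPM in DES, and plasma and B cell genes to 26.3 and 108 against 1603 and 665 CPM. Among the myeloid genes, Lyz2, the lysozyme of macrophages, stood at 34.3 and 76.2 CPM in CO and at 1186 and 396 CPM in DES (log2 3.52 ± 0.64 SE, edgeR adjusted p = 0.0395), and so made up much of the myeloid sums in DES. Cd68, a macrophage marker of the same list, was lower in both DES sections, at 73.8 and 114 CPM in CO and 71 and 55.8 CPM in DES, without passing (log2 -0.88 ± 0.28 SE, adjusted p = 0.133).

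Counted by gene, 3 of 9 tested smooth muscle genes (Acta2, Tagln, Myl9) and 3 of 7 myeloid genes (Lyz2, C1qa, C1qb) were higher in DES. None of 4 tested plasma and B cell genes passed, 3 of them having an unadjusted edgeR p under 0.05. Over all genes tested, 3.92% were called higher in DES and 24.3% had an unadjusted edgeR p under 0.05. Fibroblast genes summed to 2011 to 2734 CPM in all 4 sections, but of 11 tested Mfap4 was higher in DES (log2 1.52) and Dcn (-1.55) and Col3a1 (-1.10) were lower. Of 4 pericyte genes Notch3 was higher (2.04) and Rgs5 lower (-2.39), and of 2 mesothelial genes tested Upk3b was higher (4.12). Endothelial genes summed to 53.9 and 68.1 CPM in CO against 34.9 and 35.3 in DES. Neutrophil genes were at 7.06 and 7.05 CPM in CO and at 508 and 20.5 CPM in DES, so that DES A stood apart. Adipocyte genes reached at most 1.14 CPM, and the part of these cells in the results below was not tested.

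**Figure D2:**
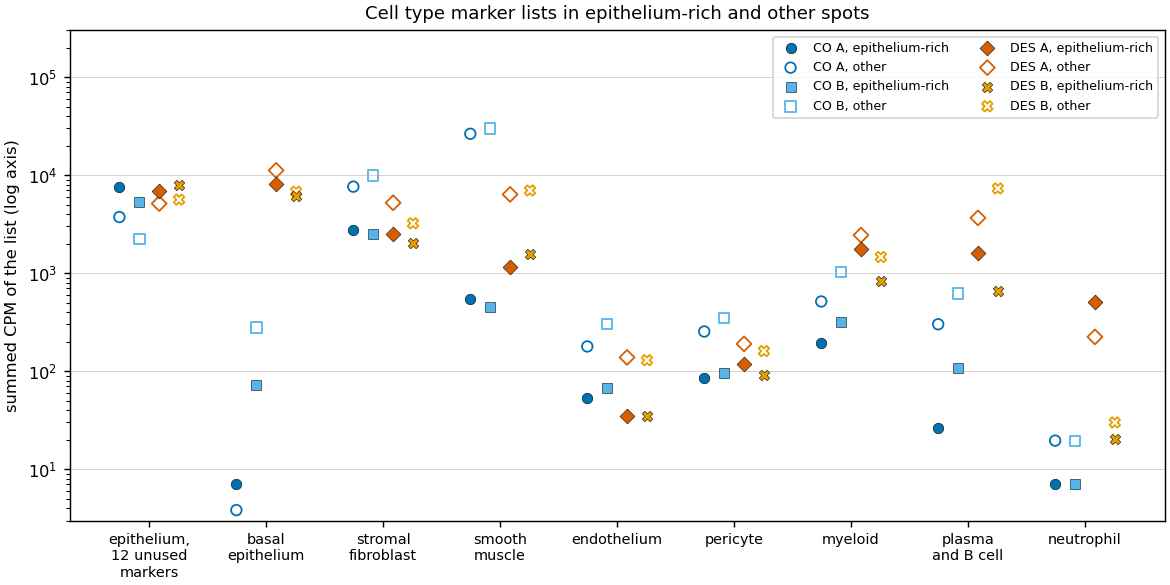
Summed CPM (log axis) of marker lists in epithelium-rich spots (filled) and other spots (open) of each section. Basal epithelial genes sit at 7.06 and 72.6 CPM in the CO epithelium-rich spots and at 8085 and 6153 CPM in the DES ones, and smooth muscle genes are lower in the epithelium-rich than in the other spots of every section.

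To ask which genes differ in this region after neonatal DES, UMIs were summed over the epithelium-rich spots of each section and tested with edgeR, leaving out the 5 choosing genes. Of 11254 genes tested, 688 (6.11%) passed a Benjamini-Hochberg adjusted p of 0.05. Of these, 441 (3.92%) were higher and 247 (2.19%) lower in DES, and in all 688 the CPM of the groups did not overlap. Over all tested genes such separation was common, in 60.7% of them, since 47% had both DES values above both CO values and 13.7% had both below. Separation of a called gene, where given below, therefore adds no support to its call. DESeq2 called 8.58%. Scaling by library size alone in place of TMM turned the split into 774 higher and 146 lower and raised the median log2 fold change over all genes by 0.31. With 2 sections per group the smallest exact permutation p for a single gene is 0.333, so the calls rest on the spread that edgeR shares across genes. Without CO A the count was 2473, without CO B 2024, without DES A 213 and without DES B 162. With 1 common limit on the marker share in every section it was 333. An unadjusted edgeR p under 0.05 was reached by 24.3% of all genes tested. Counts of list members called, given below, have to be read beside the 3.92% higher and 2.19% lower over all genes tested. Those called without 1 section have to be read beside the counts over all genes in the same setting.

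Among the named genes, 7 of the 10 largest rises had no UMI in either CO section. For these a fold is a lower bound, taken against 3 UMIs over the CO group. Dapl1, a marker of early epithelial differentiation, had 126 and 80.9 CPM in DES A and DES B, at least 165-fold higher. Nccrp1 had 98.4 and 99.7 CPM, at least 158-fold higher. Both genes are known from squamous epithelia, and both were seen in each DES section.

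Cyp4a12b, a cytochrome P450 whose reads may be shared with the near-identical Cyp4a12a, was at least 125-fold higher, with 50.9 and 106 CPM in DES. Crh, the corticotropin-releasing hormone, had 30.3 and 103 CPM and was at least 107-fold higher. Cxcl15, a chemokine of lung and uterine epithelium, reached 39.5 and 87.1 CPM, at least 101-fold higher. DES B held more than DES A of all 3 of these genes. Sptssb, a subunit of the enzyme that starts sphingolipid synthesis, had 57.8 and 53.5 CPM (at least 88.9-fold) and Ces2f, a carboxylesterase, 36.1 and 31.3 CPM (at least 53.8-fold).

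The remaining 3 were seen in CO at a few UMIs. Olfm4, a secreted glycoprotein of intestinal crypts and of several adenocarcinomas (chr14:79984081-80023139, plus strand, in mm10), rose from 0 and 4.94 CPM in CO to 1829 and 1539 CPM in DES (log2 9.12 ± 1.01 SE, edgeR adjusted p = 0.0161). Tff1 and Krt6a are described with their groups.

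Complement C3 (chr17:57203970-57228136, minus strand), an abundant estrogen-induced secretory product of the uterine epithelium, fell from 7236 and 8983 CPM in CO to 782 and 722 CPM in DES (log2 -3.74 ± 0.24 SE, edgeR adjusted p = 0.0072). Fam213a, a redox protein, fell from 3917 and 2419 to 434 and 155 CPM (log2 -3.75, not called in 1 of 13 alternative settings). These were the most abundant transcripts among the 10 largest falls, and in both the groups were far apart.

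Msx1, a homeobox factor needed for implantation, fell from 89.5 and 159 CPM to 17.2 and 3.42 CPM (log2 -3.91 ± 0.65 SE, adjusted p = 0.033). Add2, an adducin of the membrane skeleton, fell from 55.8 and 33.9 CPM to 2.29 and 0.57 CPM (log2 -5.23). Slc5a3, the myo-inositol transporter, fell from 40.7 and 46.9 CPM to 4.58 and 0.57 CPM (log2 -4.38). DES A retained somewhat more than DES B of these 3 transcripts. Ankrd37 (log2 -4.71), a hypoxia-inducible ankyrin repeat gene, Ncoa7 (-4.35), a nuclear receptor coactivator, and Rasa4 (-4.09), which inactivates Ras, fell as well. Rasa4 was not called in 1 of 13 alternative settings. The unnamed loci RP23-296D10.4 (-5.34) and RP23-181J14.2 (-3.59) complete the list.

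**Figure D3:**
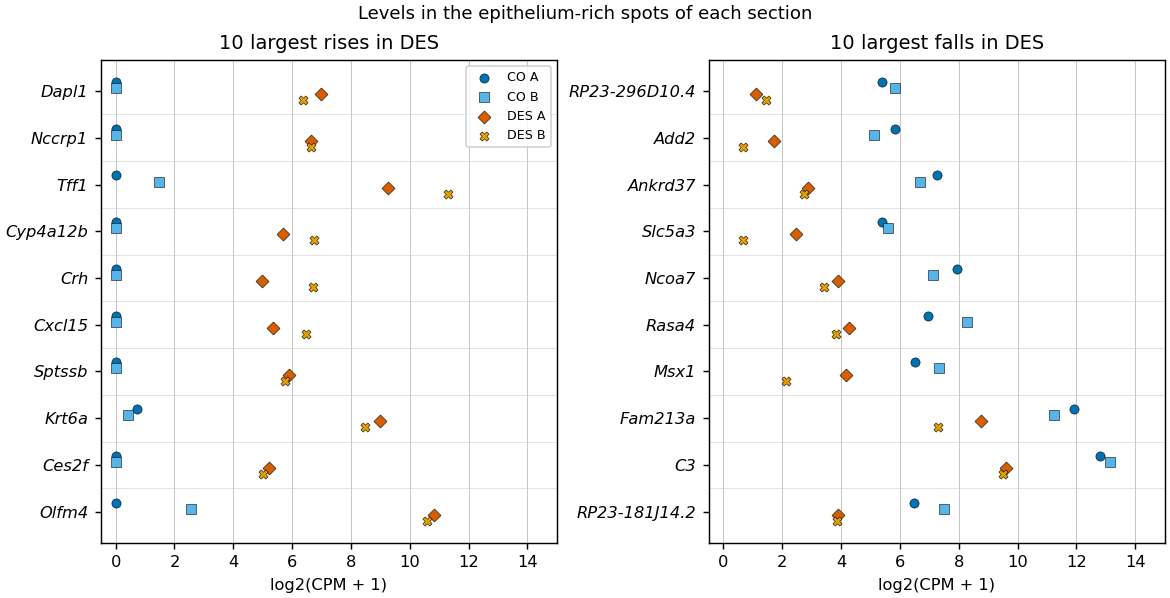
Levels of the 10 largest rises and the 10 largest falls, as log2(CPM + 1), in the epithelium-rich spots of each section, 1 point per section. In every gene the 2 DES points lie on the same side of the 2 CO points, and 7 of the rising genes are at 0 in both CO sections.

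Among the pathway lists, the largest median change was that of stratified squamous and basal epithelium. Of 24 members tested of 30, 16 were higher in DES and 0 lower, with a median log2 fold change of 5.60 against -0.02 over all genes tested, or 5.32 with the 2 genes unseen in CO set at their bounds. Nccrp1, Dsg3, Dsc3, Krt16, Lypd3, Krt6a and Fat2 had at most 3 UMIs over both CO sections. They passed the low count filter through DES alone and could not have been lower. The filter asks for enough UMIs in at least 2 sections. Krt5, Krt14, Krt15, Trp63, Col17a1, Krt13, Krt17, Pkp1, Ly6d and Lgals7 fell short of it in at least 1 CO section, and so passed through DES as well. Of the called members only Calml3 met it in CO, so the count of 0 lower and the median are largely set by the filter. Among basal markers, Krt5 (chr15:101707070-101712898, minus strand) stood at 1.28 and 26.8 CPM in CO A and CO B and at 4337 and 3326 CPM in DES A and DES B (log2 7.79 ± 1.23 SE, edgeR adjusted p = 0.0294). Its partner Krt14 stood at 2.25 and 14.5 CPM against 2949 and 1829 CPM (log2 7.85 ± 0.86 SE, adjusted p = 0.0157). Trp63, which encodes the basal cell master regulator p63, was at 1.28 and 1.41 CPM in CO and at 54.4 and 56.4 CPM in DES (log2 5.00 ± 0.33 SE, adjusted p = 0.00727). No CO section approached the DES sections in any of these, although CO B held more Krt5 and Krt14 than CO A.

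Col17a1, a hemidesmosomal collagen that anchors basal cells, moved from 0.962 and 3.53 CPM to 196 and 172 CPM (log2 6.04). Krt15 had 1.28 and 26.4 CPM in CO and 543 and 764 CPM in DES, and missed the threshold (log2 5.27 ± 1.09 SE, adjusted p = 0.0527). The difference between the CO sections was wide for Krt15.

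Suprabasal genes of the same list rose as well. Krt13, a keratin of non-cornifying stratified layers, stood at 2.89 and 4.23 CPM in CO and 452 and 552 CPM in DES (log2 6.82 ± 0.33 SE, edgeR adjusted p = 0.00501). Krt6a, a keratin of activated and mucosal squamous cells whose reads may be shared with Krt6b, had 2 and 1 UMIs in CO against 891 and 619 in DES (510.0 and 353 CPM), a ratio of 688 with an exact 95% counting interval of 235 to 3342 (log2 9.29 ± 0.42 SE). Krt17 had 0.642 and 1.06 CPM in CO and 83 and 100.2 CPM in DES (log2 6.38). The DES sections lay close together for these 3 keratins.

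Ly6d, Pkp1, a desmosomal plaque protein, Fat2, Lypd3, Dsg3 and Dsc3, desmosomal cadherins, Calml3 and Lgals7 rose too. Apart from Dsg3, their log2 fold changes ran from 3.46 for Calml3 to 7.36 for Ly6d. Dsg3 had no UMI in CO and was at least 10.5-fold higher. The member left is Nccrp1, also unseen in CO and given above with its bound. Lgals7, a galectin of stratified epithelia, differed between the DES sections, at 124 and 35.3 CPM against 0.962 and 4.94 CPM in CO (log2 4.44 ± 0.86 SE). Several products of the cornified layer were low: Ivl, involucrin, had 0 UMIs in CO and 4 and 2 in DES, Lor, loricrin, had 5.45 and 6 CPM in CO and 1.72 and 0.57 CPM in DES (adjusted p = 0.079), and Sprr1b and Sprr3 had no UMI in any of the 4 sums. Sprr1a, another precursor of the cornified envelope, was abundant, at 257 and 55 CPM in CO and 1298 and 1394 CPM in DES (log2 2.79 ± 0.70 SE, adjusted p = 0.0816), without passing the test. Perp and Sfn were also present in CO, at 302 and 223 CPM for Perp, and had adjusted p values of 0.0522 and 0.1. Dsg3 was too low to be tested without DES A or without DES B. Without DES A, Dsc3, Lgals7 and Lypd3 were no longer called (edgeR adjusted p 0.102 to 0.162), nor without DES B Dsc3 and Lypd3 (0.054 and 0.0559), and with spots ranked by the 12 other epithelial markers Krt5, Dsc3 and Lgals7 were not (0.0655 to 0.261), nor Lgals7 with the top 20% of spots (0.0709).

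Of 12 tested in the list of mucins, trefoil factors and secretory machinery, 4 were higher and 0 lower in DES (median log2 1.05). Of these 4, Muc5b, Tff1 and Spdef passed the low count filter through DES alone and could not have been lower. The count of 0 lower and the median are thus partly set by the filter. Muc5b, a gel-forming mucin (chr7:141839070-141873084, plus strand), stood at 1.92 and 0 CPM in CO and at 877 and 399 CPM in DES (log2 8.92 ± 0.88 SE, edgeR adjusted p = 0.0126). Tff1, a trefoil peptide secreted with mucins, stood at 0 and 1.76 CPM against 619 and 2544 CPM (log2 10.49 ± 1.25 SE, adjusted p = 0.0177). DES A held more Muc5b and DES B more Tff1, both far from CO.

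Spdef, a transcription factor of goblet cells, had 0.321 and 0 CPM in CO and 140.2 and 129.9 CPM in DES (log2 8.97 ± 0.48 SE, adjusted p = 0.00586), where the single CO UMI gives a count ratio of 647 with an interval of 116 to 25609. Agr2, a disulfide isomerase that folds mucins, had 36.2 and 18.3 CPM against 358 and 264 CPM (log2 3.18 ± 0.38 SE, adjusted p = 0.0177). Mucin-related genes typical of the normal uterus did not follow: Muc1 was at 595 and 335 CPM in CO and 616 and 661 CPM in DES (log2 0.14), and Fcgbp at 2902 and 2177 against 1708 and 3501 CPM (log2 -0.27), with overlapping groups for Fcgbp. With spots ranked by the 12 other epithelial markers, Agr2 was not called (edgeR adjusted p = 0.0671), and of the list 7 genes were higher and 0 lower without CO A, and 5 higher and 4 lower without CO B.

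The study named lists of gland, luminal, stem and cancer markers on samples of this series, so their directions here are not independent evidence. Of 8 gland markers tested of 12, 1 was higher and 0 lower, or 12.5% called against 6.11% of all genes, becoming 3 higher and 4 lower without CO A and 3 higher and 2 lower without CO B. Foxa2 itself stood at 4.49 and 2.12 CPM in CO and at 24.6 and 53 CPM in DES (log2 3.22 ± 0.57 SE, edgeR adjusted p = 0.038), and was not called without DES B (adjusted p = 0.167). Foxa2 fell short of the low count filter in CO B and so passed it through DES. The secretory gland genes did not rise with it. The study reports glandular epithelium in a particular spot cluster of CO A. In that cluster, number 5, 13 of 140 spots were chosen here, or 6.05% of the chosen CO A spots. The part of gland sampling in these values was not tested.

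Prap1, a secreted proline-rich acidic protein, was at 5581 and 57422 CPM in CO and 3096 and 3842 CPM in DES (log2 -3.49 ± 1.03 SE, adjusted p = 0.114), so that CO B alone was far above the rest. Sult1d1, a sulfotransferase, was at 8.66 and 129 against 3.43 and 17.1 CPM, Napsa at 22.1 and 76.9 against 36.6 and 5.13 CPM and S100g at 98.2 and 845 against 422 and 285 CPM, all with overlapping groups. Without CO B, the log2 fold change of S100g turned to 1.51 and was called. Klk1, a kallikrein too low to be tested, had 23 and 11 UMIs in CO and none in DES, at least 8.29-fold lower. The gland proteases Prss28 and Prss29 had no UMI in any epithelium-rich sum. Wnt7b (log2 1.00), Hif1a (0.61) and Gpx3 (-0.36, but 0.064 without CO B and 0.0068 without DES B) did not pass, and Spink1 had 4 UMIs in CO B and none in the other sections.

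Of 8 luminal markers, 1 was higher and 1 lower, becoming 3 and 2 without CO A and 2 and 4 without CO B. Adgrg7, an adhesion receptor, fell from 21.2 and 11.6 CPM to 1.14 and 2.28 CPM (log2 -3.53 ± 0.59 SE, edgeR adjusted p = 0.033). Lrmp, an endoplasmic reticulum membrane protein, rose from 12.5 and 2.12 CPM to 208 and 257 CPM (log2 4.65 ± 0.68 SE, adjusted p = 0.0259). The groups did not overlap in either gene, nor in any other called gene.

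Cyp21a1 had 213 and 18 CPM in CO and 42.9 and 35.3 CPM in DES, and Pla2g2e 118 and 14.5 against 27.5 and 16.5 CPM, in both cases with CO A alone high. Without CO A their log2 fold changes turned to 0.80 and 0.29. Itgam (log2 1.47), Lrrc26 (1.61), Cdc42ep2 (-1.38) and Ifi203 (-0.76, but 0.10 without CO A) did not pass. Adgrg7 was not called without DES A, without DES B or with 1 common marker share limit (edgeR adjusted p = 0.133, 0.0953 and 0.064).

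Among 7 stem and progenitor markers tested of 8, 3 were higher in DES. Ptn, the growth factor pleiotrophin, had 15.1 and 5.29 CPM in CO and 106 and 71.8 CPM in DES (log2 2.79 ± 0.49 SE, edgeR adjusted p = 0.0376). Marcksl1, an actin regulator, had 28.2 and 31.4 against 164 and 132 CPM (log2 1.99 ± 0.22 SE, adjusted p = 0.0155), and En2, a homeobox factor, 0 and 0.353 against 6.3 and 18.8 CPM (log2 5.56 ± 1.10 SE, adjusted p = 0.0472, count ratio 60.2 with an interval of 10.3 to 2431). The DES values were above both CO values in each. En2 passed the low count filter through DES alone and could not have been lower.

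Aldh1a1, at 29.2 and 16.2 CPM in CO and 10.3 and 7.97 CPM in DES, was the member with the largest fitted decrease (log2 -1.63, adjusted p = 0.0836). Axin2 (-0.20), Wnt7a (1.51) and Gstm7 (0.49) did not pass either, and Lgr5 had 2 UMIs or fewer in every sum. Without DES A none of the 3 was called (edgeR adjusted p 0.0511 to 0.105), without DES B Ptn was not (0.0622), and with 1 common marker share limit Ptn was not either (0.0923). En2 could not be tested in these last 2 settings, so that Marcksl1 alone stayed called. Of the 3 cancer markers, Olfm4 passed as given above, and all 3 were called higher without CO A and likewise without CO B. Rad51b, a DNA repair gene, had 121 and 92 CPM in CO against 259.8 and 369.6 CPM in DES (log2 1.25 ± 0.28 SE, adjusted p = 0.0657), the groups not overlapping.

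Estrogen-responsive genes did not move as a block. Of 18 tested of 22, 3 were higher and 3 lower in DES, and the median log2 fold change was -0.05. Without CO A there were 7 higher and 4 lower, and without CO B 4 higher and 7 lower. Besides C3, Sprr2f, a small proline-rich protein of the estrogen-primed luminal epithelium, fell from 17094 and 7373 CPM to 1287 and 2868 CPM (log2 -2.86 ± 0.58 SE, edgeR adjusted p = 0.0496), with the reservation that reads may be shared within the Sprr2 family. Greb1, a coactivator induced directly by the estrogen receptor, fell from 91.1 and 122 CPM to 41.2 and 26.8 CPM (log2 -1.96 ± 0.29 SE, adjusted p = 0.0259). The lowest CO value exceeded the highest DES value in both, as in every gene called lower.

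In contrast Pgr, the progesterone receptor, rose from 29.2 and 30 CPM to 80.7 and 79.2 CPM (log2 1.12 ± 0.20 SE, adjusted p = 0.0391). Esr1, the estrogen receptor itself, was at 264 and 337 CPM in CO and 233 and 235 CPM in DES (log2 -0.67 ± 0.21 SE, adjusted p = 0.133). Ltf, lactoferrin, a classical estrogen target, was at 5268 and 1329.5 against 5515 and 1981 CPM, overlapping fully, and Lcn2, lipocalin 2, at 12343 and 1947 against 1931 and 1510.4 CPM (log2 -2.37 ± 0.81 SE, adjusted p = 0.152). For Ltf the spread within each group exceeded the difference between groups. Greb1, Pgr, Sprr2f and Wnt4 were not called without DES A (edgeR adjusted p 0.0671 to 0.282) or without DES B (0.0668 to 0.304), and Greb1 and Pgr also not with 1 common marker share limit (0.0577 and 0.0849). Sprr2f was not called by library size alone (0.0502) or with the top 20% of spots (0.0596) either.

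Of 16 uterine transcription factors, steroid receptors and hedgehog genes tested of 20, 4 were higher, among them Pgr, Msx2 and Foxa2, and 2 lower (Msx1, Hoxd10), with a median log2 of -0.36, and without CO A 5 were lower. Msx1 and Msx2, paralogous homeobox genes of the uterine epithelium, went in opposite directions, Msx2 having 33 and 32.8 CPM in CO and 89.3 and 87.7 CPM in DES (log2 1.11 ± 0.20 SE, edgeR adjusted p = 0.038). Hoxd10, which takes part in positional identity, had 11.5 and 19.4 against 2.86 and 1.14 CPM (log2 -3.23 ± 0.57 SE, adjusted p = 0.0376). Msx1, Msx2 and Hoxd10 each separated the groups, as all called genes did.

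Hoxa10, needed for uterine identity, was at 23.7 and 28.9 CPM in CO and 26.9 and 16.5 CPM in DES (log2 -0.59). Ihh, the hedgehog ligand of the progesterone-primed epithelium, had at most 1 UMI in any sum, too few to be tested. Without DES A, Hoxd10, Msx2 and Pgr were among those not called (edgeR adjusted p 0.0887 to 0.282), without DES B these and Foxa2 (0.167 to 0.304), and with 1 common marker share limit Hoxd10, Msx1, Msx2 and Pgr (0.0577 to 0.11). Hoxd10 and Msx2 were also not called with the 12 other epithelial markers (0.0577 to 0.0983) or with the top 10% of spots (0.0607 to 0.0707).

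In the Wnt list, 5 of 28 tested members of 34 were higher in DES and 0 lower (median log2 0.96), while 13 were higher and 1 lower without CO A and 12 and 2 without CO B. The ligand gene Wnt4 had 33.7 and 26.1 CPM in CO and 95.6 and 110.5 CPM in DES (log2 1.47 ± 0.24 SE, edgeR adjusted p = 0.0325). Among receptors, Fzd10 had 7.38 and 12.7 against 46.9 and 35.9 CPM (log2 1.73 ± 0.35 SE, adjusted p = 0.0495) and Lgr4, a receptor for R-spondins, 29.8 and 27.5 against 80.1 and 78.6 CPM (log2 1.15 ± 0.21 SE, adjusted p = 0.0384). Sfrp1, a secreted antagonist that binds Wnt ligands, also rose, from 4.49 and 6.35 to 30.9 and 27.9 CPM (log2 2.12 ± 0.33 SE, adjusted p = 0.0288).

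The fifth was En2, which passed the low count filter through DES alone and could not have been lower. Axin2, the usual readout of canonical Wnt signalling, did not pass, at 10.3 and 12 CPM in CO and 13.7 and 10.3 CPM in DES (log2 -0.20 ± 0.34 SE, adjusted p = 0.759), and its sign turns to 0.11 when scaled by library size alone. In single epithelial cells it was at 2.88 CPM in CO and 9.29 CPM in DES, and in CO stromal cells at 94.8 CPM. No Wnt gene was called without DES A (edgeR adjusted p 0.0511 to 0.27), and Fzd10, Lgr4, Sfrp1 and Wnt4 were not called without DES B (0.14 to 0.29), where En2 was too low to be tested, so that no Wnt gene was called there either. Fzd10, Lgr4 and Sfrp1 were lost with 1 common marker share limit (0.0729 to 0.128), where En2 was again not tested, and Fzd10 and Sfrp1 with the 12 other epithelial markers (0.0547 and 0.0548).

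None of 24 PI3K and AKT pathway genes tested passed with edgeR (median log2 -0.08). Of these, 8 had an unadjusted p under 0.05, as had 24.3% of all genes tested, and DESeq2 called 1 higher and 0 lower. None of 17 cell cycle genes tested passed with edgeR either (median log2 0.01), 2 having an unadjusted p under 0.05, and DESeq2 called 0. Mki67, a marker of dividing cells, was at 17 and 8.11 CPM in CO and 14.9 and 3.99 CPM in DES (log2 -0.74 ± 0.67 SE), with overlapping groups. Some members of both lists were called without CO A or without CO B, where calls over all genes tested rose as well.

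Of 16 interferon-stimulated genes tested of 20, 6 were lower in DES and 0 higher, 13 had an unadjusted p under 0.05, and the median log2 fold change was -1.86. Without CO A 11 were lower and without CO B 10. Isg15, a ubiquitin-like modifier, had 167 and 125 CPM in CO and 24 and 36.5 CPM in DES (log2 -2.58 ± 0.31 SE, edgeR adjusted p = 0.0177). Ifit3, an antiviral effector, had 20.9 and 25 against 2.29 and 5.7 CPM (log2 -2.81 ± 0.47 SE, adjusted p = 0.0338), and Oas1a, an RNA-sensing oligoadenylate synthetase, 59.7 and 61.4 against 13.2 and 25.6 CPM (log2 -1.94 ± 0.36 SE, adjusted p = 0.0402). All DES values lay below all CO values.

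Oasl2 (log2 -2.08), the ISG15 protease Usp18 (-2.15) and Ifi44 (-2.45) were the other 3 called. Mx1, a member that did not follow, had 45.6 and 39.5 CPM in CO and 41.8 and 82.6 CPM in DES (log2 0.24 ± 0.37 SE, adjusted p = 0.731). Without DES A none of the 6 was called (edgeR adjusted p 0.0689 to 0.18), and without DES B Ifit3, Oas1a, Oasl2 and Usp18 were not (0.0504 to 0.141). With spots ranked by the 12 other epithelial markers, Ifit3 was not called (0.06).

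These genes are known to share an interferon-stimulated response element upstream. The 250 bases before the start of 3 of the called genes are shown, from RefSeq on GRCm38.p6 and 5′ to 3′ on the gene's strand, as chr4:156200819-156201068 (minus) for Isg15, chr19:34583279-34583528 (plus) for Ifit3 and chr5:120907526-120907775 (minus) for Oas1a. Capitals mark matches to GAAANNGAAA on either strand, overlapping matches running together.
Isg15: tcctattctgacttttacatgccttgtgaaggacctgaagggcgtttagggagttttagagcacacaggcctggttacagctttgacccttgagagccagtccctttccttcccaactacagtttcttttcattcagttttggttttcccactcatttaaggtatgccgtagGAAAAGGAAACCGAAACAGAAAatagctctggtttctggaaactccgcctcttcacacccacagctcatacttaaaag
Ifit3: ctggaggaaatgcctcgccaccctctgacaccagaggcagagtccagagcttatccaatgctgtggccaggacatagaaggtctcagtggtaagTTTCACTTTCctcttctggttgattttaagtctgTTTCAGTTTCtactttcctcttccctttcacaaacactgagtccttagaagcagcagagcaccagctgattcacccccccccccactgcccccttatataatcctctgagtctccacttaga
Oas1a: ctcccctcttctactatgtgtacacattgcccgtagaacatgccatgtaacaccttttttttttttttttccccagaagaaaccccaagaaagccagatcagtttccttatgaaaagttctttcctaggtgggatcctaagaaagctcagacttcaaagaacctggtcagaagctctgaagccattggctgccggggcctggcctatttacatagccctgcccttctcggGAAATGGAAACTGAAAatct
Matches start 78, 72 and 66 bases before the start of Isg15, 156 and 122 before that of Ifit3, and 20 and 14 before that of Oas1a. Of the 20 list genes 14 had a promoter entry, and 8 of these held a match, while 978 of 32851 mouse promoters (2.98%) held it in the same window. A match is a run of letters and not a measured site. The 5 other list genes with a match were Gbp2, Bst2, Rsad2 and Ifit1, which did not pass the test, and Cxcl10, which was too low to be tested. Ifi44 and Oasl2, both lower in DES, have no match in this window, and whether matches go with calls was not tested.

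Antigen presentation moved the other way. Of 7 MHC class II genes, 5 were higher in DES and 0 lower (median log2 3.21). Cd74, the invariant chain, had 120.3 and 94.2 CPM in CO and 694 and 2233 CPM in DES (log2 3.47 ± 0.61 SE, edgeR adjusted p = 0.0368). H2-Ab1, a class II chain, had 49.1 and 41.3 against 285 and 746 CPM (log2 3.21 ± 0.51 SE, adjusted p = 0.0301), and its partner H2-Aa 33.4 and 24.3 against 233 and 575 CPM (log2 3.50). DES B stood above DES A in all 3, while myeloid markers, at 1747 and 836 CPM, had the reverse order, and the part of myeloid cells in this result was not tested.

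The peptide-loading genes H2-DMa and H2-DMb1 rose by log2 3.11 and 2.69 and were not called without DES B (edgeR adjusted p 0.131 to 0.137). H2-Eb1 had 19.9 and 18.7 CPM in CO and 118 and 641 CPM in DES, at an adjusted p of 0.0537. Ciita, the master regulator of the class, had 1.92 and 0 against 4.58 and 15.9 CPM (adjusted p = 0.176).

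Among chemokines, cytokines and antimicrobial proteins, 4 of 15 tested of 26 were higher and 1 lower (median log2 2.68), with 7 higher and 1 lower without CO A and 6 and 5 without CO B. Il33, an alarmin of epithelial nuclei, had 37.2 and 8.11 CPM in CO and 269.6 and 331 CPM in DES (log2 3.41 ± 0.67 SE, edgeR adjusted p = 0.0466). The antimicrobial genes Defb1 and Slpi had 0.642 and 2.12 against 29.2 and 28.5 CPM (log2 4.05) and 5.77 and 3.88 against 54.9 and 23.4 CPM (log2 2.68). Cxcl17, a mucosal chemokine, fell from 934 and 1182 CPM to 460.2 and 429 CPM (log2 -1.56 ± 0.22 SE, adjusted p = 0.0231). The groups did not overlap in these 4 genes, nor in any other called gene. Among the genes called higher, Cxcl15, Defb1 and Slpi fell short of the low count filter in at least 1 CO section. They passed it through DES, so the counts and the median are partly set by the filter.

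The fourth gene to rise was Cxcl15. Cxcl5, a neutrophil attractant, had 18 and 0 CPM in CO and 409 and 80.3 CPM in DES (log2 4.40 ± 1.37 SE, adjusted p = 0.127), highest in DES A, the section with the most neutrophil transcripts. Without DES A, Cxcl17, Defb1, Il33 and Slpi were not called (edgeR adjusted p 0.0508 to 0.219), and without DES B Cxcl17, Defb1 and Il33 (0.0603 to 0.202). With 1 common marker share limit Cxcl17 was not called (0.0688).

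Ion and water transport genes moved in both directions, with 3 of 16 tested of 18 higher and 4 lower (median log2 -1.07), and 9 lower without CO A. Car2, a carbonic anhydrase, fell from 1337 and 2209 CPM to 183 and 246 CPM (log2 -3.35 ± 0.35 SE, edgeR adjusted p = 0.014), and the zinc and bicarbonate transporter Slc39a8 from 234 and 271 to 23.5 and 33 CPM (log2 -3.47 ± 0.28 SE, adjusted p = 0.00853). Car12 (log2 -1.80) and the potassium channel Kcnk1 (-2.10) fell less.

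Scnn1a, the alpha subunit of the epithelial sodium channel, rose from 0 and 0.705 CPM to 46.9 and 79.7 CPM (log2 7.06 ± 0.74 SE, adjusted p = 0.0141, count ratio 152 with an interval of 41.5 to 1262), the aquaporin Aqp3 from 0.321 and 2.82 to 53.2 and 37 CPM (log2 4.53) and Aqp4 from 50.4 and 49.4 to 196 and 267 CPM (log2 1.91). Each of these 7 separated the groups, as all called genes did. Scnn1a and Aqp3 passed the low count filter through DES alone and could not have been lower, so the count of higher genes is partly set by the filter. Aqp3, Car12 and Kcnk1 were not called without DES A (edgeR adjusted p 0.0603 to 0.129), Aqp4, Car12 and Kcnk1 without DES B (0.102 to 0.119), Aqp4 and Kcnk1 with 1 common marker share limit (0.0909 and 0.101), and Aqp3 with the 12 other epithelial markers (0.0646).

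Of 27 antioxidant and glutathione genes tested of 29, 2 were higher in DES and 0 lower, 7.41% against 6.11% over all genes (median log2 0.23), with 6 higher and 3 lower without CO A and 3 and 3 without CO B. Gsta4, which conjugates lipid aldehydes to glutathione, rose from 52.9 and 14.1 CPM to 707 and 675 CPM (log2 4.04 ± 0.62 SE, edgeR adjusted p = 0.0276). Gclc, the catalytic subunit of the enzyme that limits glutathione synthesis, rose from 12.8 and 16.6 to 50.9 and 43.3 CPM (log2 1.37 ± 0.26 SE, adjusted p = 0.0458). Gclc was not called in 7 of 13 alternative settings, namely without DES A, without DES B, with 1 common marker share limit, with the 12 other epithelial markers, with spots of at least 2000 UMIs and with the top 10% or 20% of spots (edgeR adjusted p 0.0504 to 0.281).

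The DES against CO difference in the epithelium-rich spots was then tested against that in the 5269 other spots of the same sections. The interaction passed for 1092 of 13586 genes (8.04%), with 668 (4.92%) positive and 424 (3.12%) negative, where positive means a higher log2 fold change in the epithelium-rich spots. Scaled by library size alone the split was 822 positive and 207 negative. Of the 12 other epithelial markers, 6 passed as negative and 0 as positive (50%, median log2 -0.73). Among these 12 only Cldn4 differed in the epithelium-rich spots themselves. By marker share, chosen and other spots lay closer together in DES, and the part of this in the interactions was not tested. In the other spots taken alone, 858 of 13726 genes (6.25%) differed, 2.94% being higher and 3.31% lower in DES, and 2917 without CO A, 2158 without CO B, 81 without DES A and 36 without DES B. The interaction count was 2464 without CO A, 372 without DES A, 375 without DES B and 541 with the top 10% of spots.

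Igfbp2, which binds insulin-like growth factors, had 1.92 and 3.17 CPM in the epithelium-rich spots of CO and 191 and 258 CPM in those of DES, while in the other spots it had 92.8 and 235 against 190.2 and 367 CPM (interaction log2 5.58 ± 0.31 SE, edgeR adjusted p = 2.06e-06). It was thus nearly absent from CO epithelium-rich spots and present in the other 3 classes of spot. Fmod, fibromodulin, an extracellular matrix proteoglycan, had an interaction of 4.77 (edgeR adjusted p = 0.00184). With 0 and 1 UMIs in the CO epithelium-rich spots, the size of that value is uncertain. The interactions of Cxcl15 (7.21), Dapl1 (6.57) and Sptssb (6.42) were larger, but with no UMI in CO epithelium-rich spots these fitted values depend on the prior count and are no bounds.

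Agr2 was at 87.8 and 42.3 CPM in the other spots of CO and at 67 and 65.2 CPM in those of DES, so its rise was found in the epithelium-rich spots (interaction 3.33 ± 0.21 SE, adjusted p = 5.28e-06). Muc5b had 5.01 and 0.122 against 192 and 78.2 CPM in the other spots (interaction 3.53 ± 0.45 SE, adjusted p = 0.000617). Ptn had 127 and 152 against 90.8 and 87.4 CPM there (interaction 3.61 ± 0.38 SE, adjusted p = 0.000142). Agr2, Muc5b and Ptn therefore differed more in the epithelium-rich spots than elsewhere. Tff1 (interaction 2.10 ± 0.89 SE, adjusted p = 0.175) and Spdef (2.20 ± 1.15 SE, adjusted p = 0.27) did not pass.

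Genes of the stratified list did not share 1 pattern. Krt17 (interaction 3.64), Krt13 (3.34) and Krt6a (4.27) differed more in the epithelium-rich spots, and Krt5 did too (1.57 ± 0.36 SE, edgeR adjusted p = 0.0205), as did Lgals7 (3.19) and Sbsn (1.35). Perp (-1.02 ± 0.21 SE, adjusted p = 0.0108) and Sfn (-1.13 ± 0.23 SE, adjusted p = 0.0108) went the other way. In the other spots both passed as higher in DES (log2 2.18 and 3.26). Interactions of like size were found for the epithelial markers Krt7 (-1.05) and Elf3 (-1.07). The other spots of CO held 2.45 and 76.6 CPM of Krt13, 0 and 18.8 CPM of Krt6a, 0.639 and 117 CPM of Krt5, and 10.1 and 11.2 CPM of Krt17. Krt17 was thus higher there than in the epithelium-rich spots of both CO sections, while the high values of the other 3 came from CO B alone, where the other spots held 279 CPM of the basal list against 3.83 CPM in those of CO A. Krt14 (1.48 ± 0.45 SE, adjusted p = 0.0626) and Trp63 (1.09 ± 0.64 SE, adjusted p = 0.331) did not pass. In DES the other spots held at least as much Krt14 as the epithelium-rich ones, 4465 and 2060.0 CPM against 2949 and 1829 CPM.

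Among negative interactions, Slc5a3 (-2.27), Ankrd37 (-1.89) and RP23-181J14.2 (-1.86) fell further in the epithelium-rich spots. Akr1c18, a progesterone-catabolising enzyme, had 10.6 and 4.94 against 35.5 and 90.6 CPM in the epithelium-rich spots and 3.2 and 0.732 against 47.5 and 59.6 CPM in the others (interaction -1.96 ± 0.47 SE, edgeR adjusted p = 0.0257). Spink12, a protease inhibitor, had an interaction of -1.95. Acta2, the smooth muscle actin, was lower in the other spots of DES, at 5718 and 5794 against 1483 and 1678 CPM, and higher in its epithelium-rich spots, at 88.2 and 72.3 against 269 and 343 CPM (interaction 3.67 ± 0.20 SE, adjusted p = 2.06e-06), as were Tagln (3.71) and Myl9 (3.55).

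**Figure D4:**
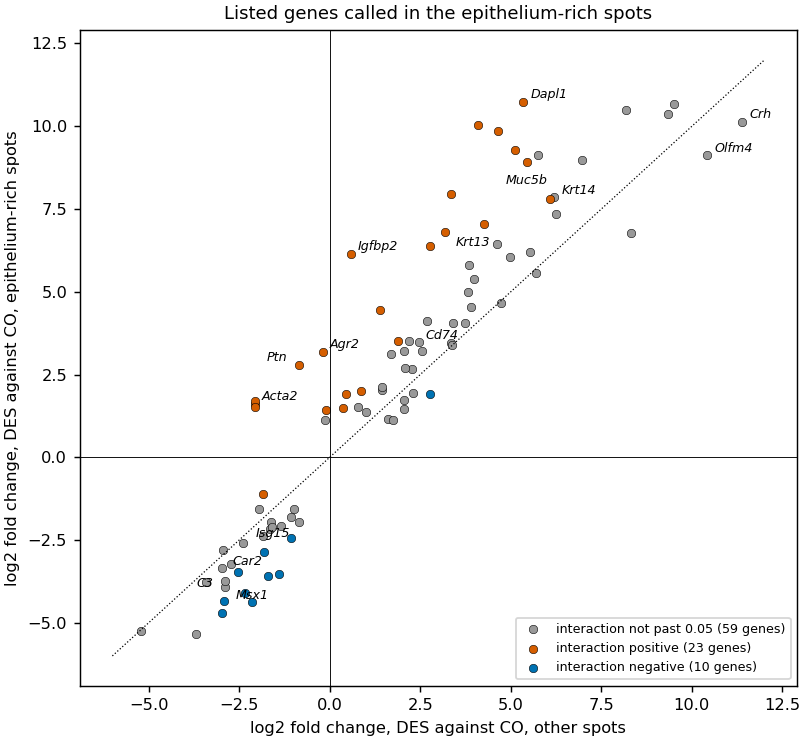
Log2 fold change of DES against CO in the epithelium-rich spots (vertical) and in the other spots (horizontal) for 92 listed or named genes called in the epithelium-rich spots. The dotted line marks equal changes, orange points have a positive and blue points a negative interaction past 0.05 (23 and 10 genes), and grey points (59) do not pass, the 2 axes sharing the same 4 mice.

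Spot by spot, the share of chosen spots with a UMI differed between the genes that rose. After thinning every spot to 2000 UMIs, which kept 194, 260, 199 and 171 spots, Krt5 was found in 0% and 3.85% of CO spots and in 88.4% and 97.7% of DES spots (1.86%, 10.5%, 92.4% and 97.5% without thinning). Krt13 was found in 0.515%, 0.385%, 38.2% and 48.0% of thinned spots, Trp63 in 0.515%, 0%, 11.6% and 12.3%, and Foxa2 in 1.55%, 0.769%, 5.53% and 5.85%. Basal keratin thus marked most DES spots while the suprabasal keratin marked fewer.

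Olfm4 was found in 0%, 1.15%, 70.9% and 83.6% of thinned spots, Muc5b in 0.515%, 0%, 36.2% and 25.7%, and Tff1 in 0%, 0.385%, 31.7% and 57.3%. Cd74 was found in 19.1%, 21.9%, 62.3% and 93.0%. C3 went the other way, from 100% and 100% of CO spots to 55.8% and 64.9% of DES spots, as did Car2, from 93.8% and 98.1% to 20.6% and 33.9%. Acta2 was found in 16.5%, 13.5%, 34.2% and 41.5%, and Lyz2 in 7.22%, 19.2%, 52.8% and 36.8%. These shares count regions holding a transcript and not cells.

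The chosen spots did not coincide with 1 of the spot clusters deposited for each section. In CO A 60% of them lay in cluster 1, and in CO B 74.9% in cluster 2. In DES A 43.2% lay in cluster 2 and 24.2% in cluster 1. In DES B no cluster held more than 33.8%, and clusters 2, 7, 1 and 4 each held 15.7% or more.

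Epithelial cells as annotated in the single-cell data gave a second measure of the same genes, from 2583 CO cells with 78801159 UMIs and 5255 DES cells with 176170962 UMIs. With 1 pooled library per group there is no test, and intervals are exact Poisson 95% intervals that cover counting error only. No doublets were called here, and the study's methods state that its own analysis removed them. The haemoglobin gene Hbb-bs, a red blood cell transcript, was found in these cells at 826 CPM in CO and 344 CPM in DES, and the part of such free RNA in the values below was not tested. Krt14 was at 0.838 CPM (0.648 to 1.07) in CO cells and at 226 CPM (224 to 229) in DES cells, and Trp63 at 0.0761 (0.0279 to 0.166) against 15.5 (14.9 to 16.1) CPM. Without the 483 DES cells counted as basal, which held over 1 UMI each of Trp63 and Krt14, Krt14 was at 42.7 CPM in DES. Basal keratins were therefore higher in DES in cells and spots alike.

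Olfm4 was at 0.964 against 69.5 CPM, Crh at 0.0381 against 134 CPM and Cd74 at 28.8 against 532 CPM in CO and DES cells. C3 was at 1730.2 against 884 CPM and Car2 at 1211 against 295 CPM. Of 441 genes called higher in DES spots, 178 reached 10 CPM in these cells, and 139 of these (78.1%) were also higher in DES cells. Of 247 called lower, 212 reached it, and 44 of these (20.8%) were higher in DES cells. Over all 8292 tested genes at that level it was 54.9%. Among the largest rises, Dapl1, Nccrp1, Cyp4a12b, Cxcl15, Sptssb, Krt6a and Ces2f were below that level, the highest being Dapl1 at 4.82 CPM in DES cells.

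Some spot results had no counterpart in the cells. Muc5b was at 0.292 CPM (0.185 to 0.438) in CO cells and 0.0454 CPM (0.0196 to 0.0895) in DES cells, Spdef at 0.102 against 0.193 CPM and Krt6a at 0.66 against 0.352 CPM, levels far below those of the DES spots. Lrmp was higher in CO cells, at 93.2 against 14.7 CPM, and so was Aqp4, at 62.6 against 8.23 CPM, opposite to the spots. Cldn4, at 203 against 66.5 CPM, and Lgals7, at 3.67 against 0.505 CPM, were likewise higher in CO cells. Krt13 differed little, at 14.7 CPM in CO and 20.1 CPM in DES cells. Of the same list, Ly6d (3.69 against 125 CPM) and Krt17 (6.24 against 62.0 CPM) were higher in DES cells. Sprr1a (377 against 82.7 CPM) and Sfn (385 against 208 CPM), higher in the DES spots without passing, were higher in CO cells. Cxcl17 was at 324 CPM in CO and 429 CPM in DES cells, also opposite. In the other direction Prss28 and Prss29, unseen in the epithelium-rich sums, were at 185 and 602 CPM in CO cells and at 0 UMIs in DES cells. The difference between cells and spots was not tested.

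**Figure D5:**
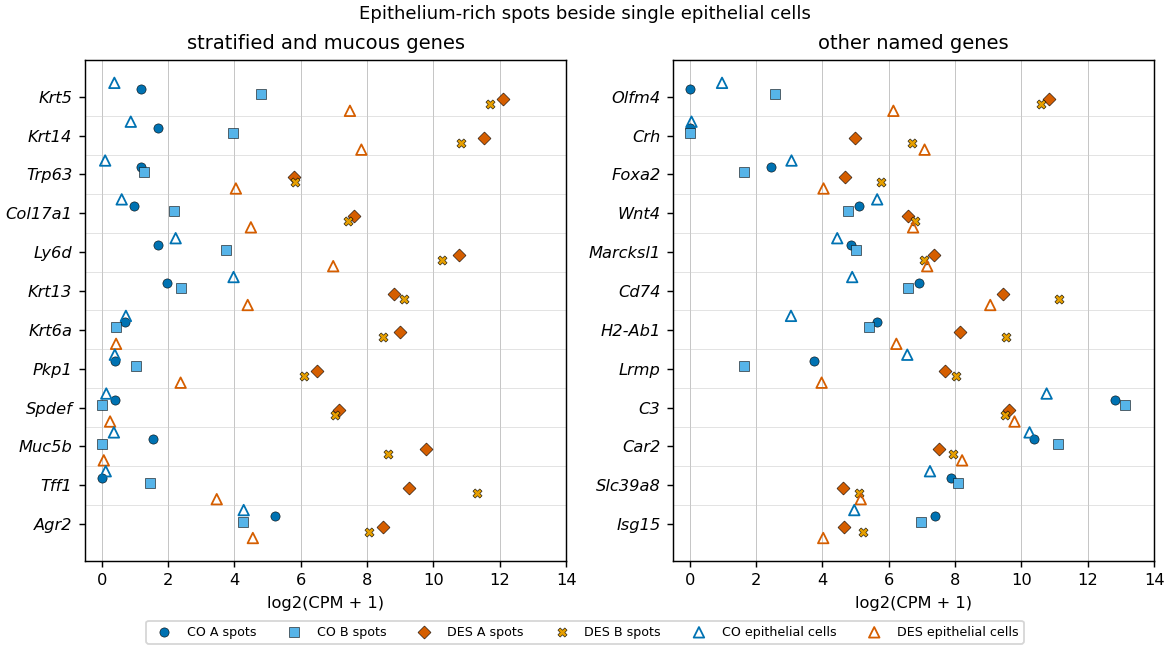
Levels, as log2(CPM + 1), of 24 genes in the epithelium-rich spots of each section (filled) and in the epithelial cells of the single-cell libraries (open triangles, 1 pooled library per group). Krt5, Krt14 and Olfm4 are higher in DES on both platforms, whereas Muc5b, Spdef and Krt6a are near 0 in both cell libraries and Lrmp is higher in CO cells.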

How the data were processed

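Visium libraries from 4 uterine sections were sequenced on a NextSeq 500, and per the labels and the study's methods Space Ranger 1.2.2 (bcl2fastq 2.20.0.422, mm10) produced the deposited counts, whole UMIs per gene and spot over tissue. The single-cell counts come from Cell Ranger 3.0.1, with the authors' cell annotation, and were turned to CPM here. The deposited cluster tables were used only to place spots.

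Spots were chosen by marker share (ties in file order) and raw UMIs summed per section. edgeR 4.0.16 (R 4.3.3; filterByExpr, TMM, glmQLFit, glmQLFTest, Benjamini-Hochberg 0.05) tested DES against CO, with the section as replicate, and the interaction with spot class with the section as a block. DESeq2 1.42.0 was an alternative, as were other spot choices, filters and scalings, and each section was left out in turn, the lone section then being assumed to vary like the other group. The 5 choosing genes stayed in library sizes and out of tests. Bounds use 3 UMIs over a group on TMM-scaled library sizes (0.562 CPM in CO, 0.768 in DES), while printed CPM are unscaled. PCR duplicates are collapsed by UMI, and intervals cover counting error only. Mouse gene positions came from a GENCODE annotation of mm10, and the bases before gene starts from RefSeq on GRCm38.p6.

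Named genes were the 10 largest rises and falls among called genes whose groups did not overlap and that had at least 30 CPM in each section of the higher group, the 5 largest interactions of each sign by the same conditions, and members of lists. Part, lists and marker genes were chosen with earlier results of these data known. Lgr5, Tff3 and other members below the filter were not tested. On simulated counts with 100 genes changed at each size, the epithelium-rich comparison recovered 86% at log2 2 and 100% at log2 4 with 24 unchanged genes called (10903 genes). The changed genes were drawn only from those with higher counts. Recovery of genes with few UMIs, such as Dsg3 and En2, was therefore not measured. The letter A was given here to the section of each group whose title carries no letter. All 4 sections are 1 per mouse, so p-values measure the spread between mice and sections together. Some members of the lists are counted but not reported by name.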

Additional observations from a re-analysis of the deposited data

Results flagged for a closer look

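The DES against CO difference was not the same in the epithelium-rich and in the other spots for 1092 genes by the edgeR interaction term, and these were looked at because the difference between the spot classes was tested directly. Among named genes the interaction, in log2, was 7.21 for Cxcl15, 6.57 for Dapl1 and 6.42 for Sptssb. All 3 had no UMI in CO epithelium-rich spots, so that these values depend on the prior count. The interaction was 5.58 for Igfbp2 and 4.77 for Fmod, the latter with 1 UMI over the CO epithelium-rich spots. It was -2.27 for Slc5a3, -1.96 for Akr1c18, -1.95 for Spink12, -1.89 for Ankrd37 and -1.86 for RP23-181J14.2.

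Among list genes with an interaction beyond log2 3, the keratins Krt6a (4.27), Krt17 (3.64) and Krt13 (3.34) and Lgals7 (3.19) belong to the stratified list, Muc5b (3.53) and Agr2 (3.33) to the mucous list and Ptn (3.61) to the progenitor list. For Krt6a, Krt13 and Lgals7 the CO value in the other spots came mostly from CO B, at 18.8, 76.6 and 63.7 CPM against 0, 2.45 and 0.746 CPM in CO A. Muc16 (6.54), a mucin without a UMI in CO epithelium-rich spots, was not called in those spots themselves. The smooth muscle genes Tagln (3.71), Acta2 (3.67), Myl9 (3.55), Cnn1 (3.44), Myh11 (3.25) and Lmod1 (3.21) stand beside them. Smooth muscle genes summed to 545 and 454 CPM in CO and 1150 and 1554 CPM in DES in the epithelium-rich spots, and in the other spots to 26367 and 29791 CPM in CO against 6357 and 6971 CPM in DES, the larger of the differences, and whether muscle RNA plays a part in the other interactions was not tested.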

How the results depend on the processing

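The 688 genes differing in the epithelium-rich spots became 966 with DESeq2 (665 shared), 694 with DESeq2 size factors in edgeR, 674 without the filter on low counts, 620 and 736 with the top 10% and 20% of spots, 855 with the 12 other epithelial markers (576 shared), 676 among spots with at least 2000 UMIs and 920 by library size alone (added after seeing the scaling factors), but 333 with 1 common marker share limit, which left 88 and 92 DES spots. Leaving out 1 section gave 162 to 2473. The interaction count of 1092 became 500 with DESeq2, 1772 without the filter and 541 with the top 10% of spots, and 372 to 2464 without 1 section. The 858 of the other spots became 1706 with DESeq2 and 36 to 2917 without 1 section. Of 79 named called genes, 79 stayed called with DESeq2, 47 of the 78 still tested without DES A and 48 of 77 without DES B, and none reversed. Reversals were seen among genes that were not called. Axin2 turned to 0.11 by library size alone and 0.030 with the 12 other markers. Over the fits without 1 section the log2 fold change ran from -2.77 to 0.80 for Cyp21a1, -1.53 to 0.10 for Ifi203, -2.75 to 0.29 for Pla2g2e and -1.88 to 0.92 for Spink12, each highest without CO A, from -0.84 to 0.064 for Gpx3 (0.0068 without DES B) and from -1.58 to 1.51 for S100g, both highest without CO B. The cause of these moves was not tested. No paired analysis was possible because no label ties any CO mouse to a DES mouse. Depth limits the genes tested, since Klk1, with 34 UMIs in CO and 0 in DES, fell below the filter.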
